A study of Mus musculus with 6 samples.

Results

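The endoderm marker set consisted of 9 genes: the transcription factors Gata4, Gata6, Sox7, Sox17, Foxa2 and Hnf4a, the endocytic adaptor Dab2, the growth factor receptor Pdgfra and the secreted protein Afp. The genes were taken as a list of names, which used no threshold on their values, and were found among the 50686 gene identifiers of the count files by their Ensembl identifiers. All 9 passed the filter on low counts, which 16729 identifiers passed. The cells were mouse induced pluripotent stem cells (iPSCs) made from gingival fibroblasts, formed into embryoid bodies (floating cell aggregates), treated with retinoic acid and plated on gelatin. The ICF group (3 samples) received intermittent compressive force (ICF) of 1.5 g per cm2 at 0.23 Hz for 24 h in serum-free medium. The control group (3 samples) received no force over the same 24 h, and the methods name no other medium for it. Both groups therefore carried the retinoic acid treatment, and both were derived from cultures kept on SNL feeder fibroblasts until embryoid bodies were made, when the feeders were removed by selective trypsin treatment. The labels number the samples donor 1 to 3 in each group and give no strain, sex or age. The purpose of the comparison was to see which transcripts of the plated embryoid bodies differ after a day of ICF.

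In the mouse embryo, the GATA factors Gata4 and Gata6 and the SOX factors Sox7 and Sox17 act in the primitive endoderm, the extraembryonic layer that forms beside the pluripotent epiblast and gives rise to visceral and parietal endoderm. Pdgfra and Dab2 are standard markers of that layer, while Hnf4a and Afp mark the visceral endoderm and later the liver. Foxa2 and Sox17 are also used as markers of definitive endoderm, which forms at gastrulation. Embryoid bodies commonly form an outer endoderm layer around a pluripotent or differentiating core.

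The count files held 28711166 to 34194413 counts on genes per sample. ICF replicate 3 stood apart from the other samples: 89.0% of its counts above 0 were multiples of 4, against 20.3% to 21.5% in the others, and it had a count for 20802 genes against 24340 to 24889. The counts of all 9 endoderm markers in this sample were multiples of 4, so results are given below with and without it. Replicate 3 of both groups also had a larger share of reads outside annotated genes (6.2% and 6.0%) than replicates 1 and 2 (4.1% to 4.5%). Values below are TMM-normalised CPM, that is each gene's count relative to the sample's library size after edgeR's scaling between samples, as mean ± SD over 3 samples. Both groups carry the same donor numbers, but whether these pair replicates 1 and 2 is uncertain. The fit with the number as a block is given where it changes the call of a named gene or the count of a list.

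Across the set, Hnf4a was higher and Sox17 was lower with ICF, and the other 7 markers did not pass the test (edgeR's quasi-likelihood test, Benjamini-Hochberg adjusted p under 0.05 over all 16729 genes). Hnf4a rose 1.63-fold from 11.6 ± 3.08 to 19.0 ± 0.4504 CPM, and Sox17 fell to 0.79 of its control level, from 68.8 ± 2.98 to 54.3 ± 5.78 CPM. Of all genes tested, 3.47% were called higher and 4.38% lower, beside 1 of 9 markers in each direction. With the donor number as a block, Gata6 and Dab2 were also called higher, which made 3 markers higher and 1 lower, when 14.6% and 15.3% of all genes were called higher and lower. The median log2 fold change of the 9 markers was 0.10, against 0.00 over all genes tested. In total RNA of whole cultures, a different number of endoderm cells and a different amount of RNA per endoderm cell cannot be told apart.

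**Figure D1:**
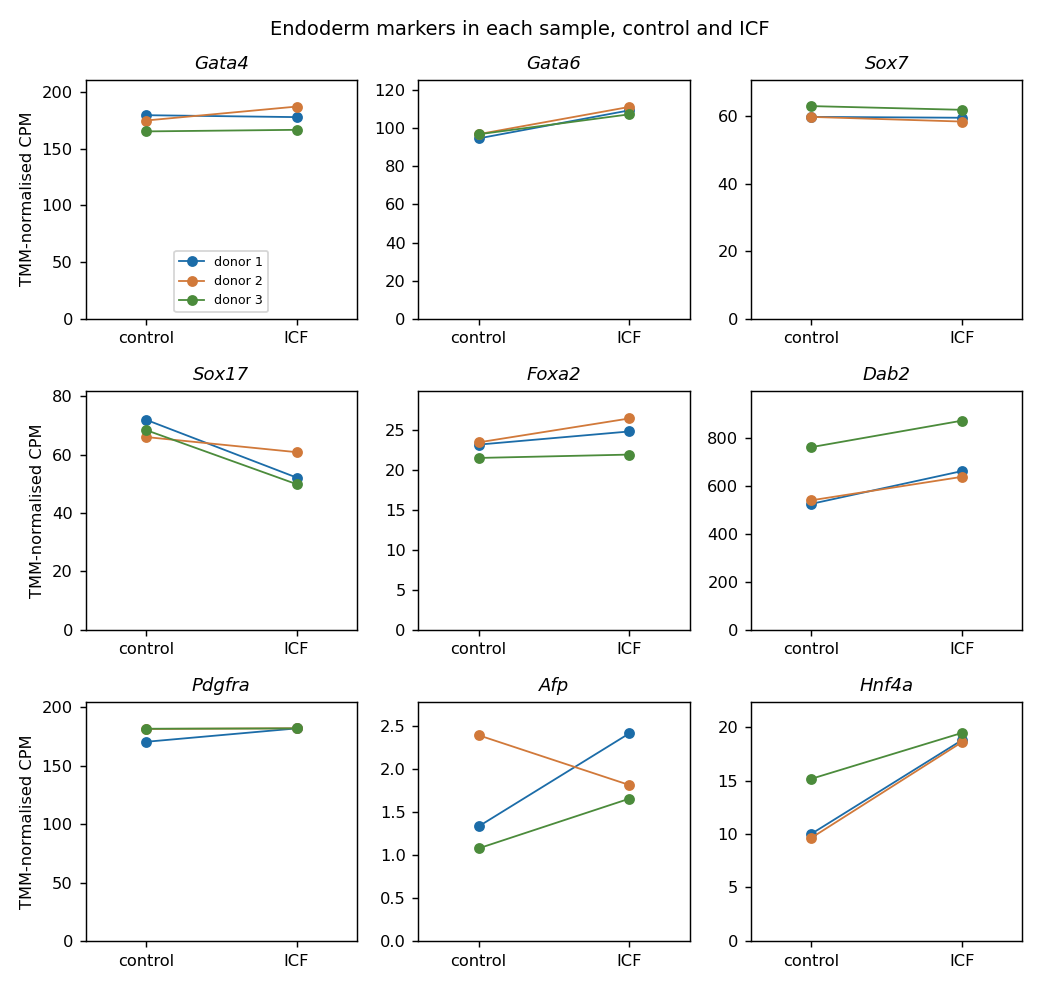
TMM-normalised CPM (vertical axis, from 0) of each of the 9 endoderm markers in the 3 control and the 3 ICF samples, with lines joining samples of the same donor number. All 3 Hnf4a values with ICF, 18.6 to 19.5 CPM, lie above the highest control value of 15.2, and all 3 Sox17 values with ICF, 49.9 to 60.8 CPM, lie below the lowest control value of 66.0.

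These calls rested on few samples. The number of markers past the threshold was 2 with all samples, 0 without control replicate 1, control replicate 2 or ICF replicate 1, and 1 without control replicate 3 (Hnf4a), ICF replicate 2 (Sox17) or ICF replicate 3 (Hnf4a). In the 3 fits with none, 3 or 4 markers had an unadjusted p under 0.05 by edgeR. Over all genes, 2946 of 17143, 2927 of 17015 and 3462 of 17049 did so without control replicate 1, control replicate 2 and ICF replicate 1. DESeq2 on all samples called the same pair, Hnf4a and Sox17. Of the 29735 genes to which it gave a p, it called 2.95% higher and 3.6% lower. Some of these genes received no adjusted p and could not be called, which lowers both shares. Using replicates 1 and 2 of each group only removes the sample with counts in steps of 4. In that fit edgeR called Gata6, Dab2 and Hnf4a higher and Sox17 lower, beside 14.6% and 15.6% of all genes. In 3 markers all ICF samples were above all control samples (Gata6, Hnf4a and Pdgfra) and in 1 all were below (Sox17), where 15.6% and 15.7% of all genes tested were so separated.

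Hnf4a encodes a nuclear receptor that controls lipoprotein and other secretory genes in visceral endoderm and liver. It lies on the plus strand of chromosome 2 (ENSMUSG00000017950, chr2:163506808-163572910, GRCm38) and has 13 exons after merging of its transcripts. The control samples had 10.02, 9.65 and 15.2 CPM for donors 1, 2 and 3, and the ICF samples had 18.8, 18.6 and 19.5 CPM. Control replicate 3 was the highest of the controls and the ICF samples were close to one another; the groups did not overlap. Its log2 fold change was 0.71 (SE 0.21) with an edgeR adjusted p of 0.035, and the exact two-sided permutation test gave 0.1, the smallest p it can give with 3 samples against 3. The log2 difference was 0.90 for donor 1, 0.94 for donor 2 and 0.36 for donor 3. The log2 fold change ranged from 0.59 to 0.95 when each sample was left out, with edgeR adjusted p of 0.15, 0.15 and 0.0014 without control replicates 1, 2 and 3 and 0.1, 0.083 and 0.046 without ICF replicates 1, 2 and 3. It was 0.93 (adjusted p = 1.4e-07) in replicates 1 and 2 alone.

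RefSeq lists 2 starts of Hnf4a, and the counts per gene do not separate transcripts from these starts. The windows from 250 bases before to 50 bases after each start are shown because Hnf4a had the highest fold of the markers, together with those of Dab2, the most abundant marker, with the matches to short motifs of endoderm factors in capitals. The GATA letters searched were AGATAA or AGATAG and likewise TGATAA or TGATAG, and the HNF1 letters were GTTAAT, on both strands. Coordinates are of GRCm38.p6, and all 4 windows are on the plus strand and read 5′ to 3′.
Hnf4a upstream start, chr2:163506607-163506906: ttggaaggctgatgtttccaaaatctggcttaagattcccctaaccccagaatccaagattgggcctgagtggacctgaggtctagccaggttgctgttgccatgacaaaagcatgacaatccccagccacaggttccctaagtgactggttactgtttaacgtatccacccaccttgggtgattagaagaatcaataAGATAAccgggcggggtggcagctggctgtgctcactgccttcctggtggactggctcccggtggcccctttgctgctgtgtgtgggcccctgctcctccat
Hnf4a downstream start, chr2:163546905-163547204: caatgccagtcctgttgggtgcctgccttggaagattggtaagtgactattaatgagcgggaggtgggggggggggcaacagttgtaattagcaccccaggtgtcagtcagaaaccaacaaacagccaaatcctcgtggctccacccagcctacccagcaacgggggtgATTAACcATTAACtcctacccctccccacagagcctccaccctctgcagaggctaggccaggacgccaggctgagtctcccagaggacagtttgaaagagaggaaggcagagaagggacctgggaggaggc
Dab2 upstream start, chr15:6299539-6299838: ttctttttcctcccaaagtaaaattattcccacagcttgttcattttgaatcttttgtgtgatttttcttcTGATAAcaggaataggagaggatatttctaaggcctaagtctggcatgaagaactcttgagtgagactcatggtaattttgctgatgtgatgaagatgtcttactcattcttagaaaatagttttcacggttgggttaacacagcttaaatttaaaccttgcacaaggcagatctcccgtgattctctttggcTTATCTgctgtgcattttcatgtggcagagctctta
Dab2 downstream start, chr15:6386498-6386797: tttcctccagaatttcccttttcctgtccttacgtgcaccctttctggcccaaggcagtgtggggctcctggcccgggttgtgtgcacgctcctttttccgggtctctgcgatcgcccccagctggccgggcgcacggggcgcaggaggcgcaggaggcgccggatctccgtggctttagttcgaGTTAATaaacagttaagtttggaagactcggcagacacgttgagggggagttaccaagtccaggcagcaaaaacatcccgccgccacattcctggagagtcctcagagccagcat

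The upstream Hnf4a window held 1 GATA match at position -52 from the start (leftmost letter), and the downstream window held 2 HNF1 matches on the opposite strand, at -81 and -74. The upstream Dab2 window held GATA matches at -179 and, on the opposite strand, at 15, and the downstream window held 1 HNF1 match at -65. Of 32851 RefSeq windows of this length, 29.8% held a GATA match and 7.1% an HNF1 match, so a match to the GATA letters is common. FOXA letters (TGTTTAC or TGTTTGC and likewise TATTTAC or TATTTGC), which 13.5% of windows held, SOX letters (CATTGT), which 12.6% held, and HNF4 letters (CAAAGTC), which 4.4% held, were not in these 4 windows. The single Afp window held 1 FOXA match at -55 and 1 HNF1 match at -105. The single Pdgfra window held 1 FOXA match at 5. Of the 3 Foxa2 windows, 1 held a GATA match at -183 and an HNF1 match on the opposite strand at -176, and the others held no match. A match says only that these letters are present. Windows of Gata4, Gata6, Sox7 and Sox17 were not analysed here.

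Sox17 encodes a SOX transcription factor of primitive and definitive endoderm and of endothelium. It lies on the minus strand of chromosome 1 (ENSMUSG00000025902, chr1:4490931-4497354). The control samples had 71.9, 66.0 and 68.4 CPM and the ICF samples 52.1, 60.8 and 49.9 CPM for donors 1, 2 and 3. Each ICF sample was below each control sample, and ICF replicate 2 was nearest to the controls. Over all samples it fell by 0.34 on the log2 scale (SE 0.09, edgeR adjusted p = 0.045, exact permutation p = 0.1), and the difference for each donor number was -0.46, -0.12 and -0.46. Without control replicates 1, 2 and 3 in turn the edgeR adjusted p was 0.18, 0.13 and 0.06, and without ICF replicates 1, 2 and 3 it was 0.16, 0.029 and 0.071, with log2 fold changes from -0.43 to -0.28. In replicates 1 and 2 alone the log2 fold change was -0.29 (adjusted p = 0.0031). A processed transcript on the other strand, Gm37587, covers 16.8% of the Sox17 exon bases. Gm37587 itself had 0 to 2 counts per sample, and its part in the Sox17 counts was not tested. With strand used in counting, 0.0% of the possible 75-base reads of Sox17 would match another gene, and without it 23.0% would match Gm37587; the library was strand-specific, but the strand setting of the counting is not given in the sources used here.

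Sox7, the other SOX F factor of the set and a marker of primitive endoderm, had close values in the groups. It lies on chromosome 14 (ENSMUSG00000063060, chr14:63943673-63950732, plus strand). The control samples had 59.8, 59.8 and 63.0 CPM and the ICF samples 59.5, 58.4 and 61.9 CPM. The groups overlapped, and the log2 fold change was -0.02 (SE 0.04, edgeR adjusted p = 0.86). The ratio of Sox17 to Sox7 CPM within a sample was 1.203, 1.104 and 1.086 in the controls and 0.876, 1.04 and 0.806 with ICF. It was thus lower in every ICF sample than in every control sample, with a log2 difference of -0.32 (exact two-sided permutation p = 0.1).

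Gata4 and Gata6 encode zinc finger factors, of which Gata6 is required for the primitive endoderm to form and Gata4 acts beside it. Gata6 (ENSMUSG00000005836, chr18:11052064-11085635, plus strand) had 94.7, 97.0 and 96.9 CPM in the controls and 109.5, 111 and 107 CPM with ICF. The groups did not overlap and the samples within each group were close. The log2 fold change was 0.19 (SE 0.02), a 1.14-fold difference, and it did not pass in edgeR without the block (adjusted p = 0.072) but did with it (adjusted p = 0.0061). The log2 differences for the donor numbers were 0.21, 0.20 and 0.15, and leaving out each sample gave 0.17 to 0.21, with 0 of 6 fits past the threshold (edgeR adjusted p 0.06 to 0.23, unadjusted p with all samples 0.0077, DESeq2 adjusted p 0.059).

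Gata4 (ENSMUSG00000021944, chr14:63198922-63271692, minus strand) had 179, 175 and 165 CPM in the controls and 178, 187 and 167 CPM with ICF. The groups overlapped, with replicate 3 lowest in both. Gata4 did not pass, with a log2 fold change of 0.03 (SE 0.06, edgeR adjusted p = 0.79). The ratio of Gata6 to Gata4 CPM within a sample was 0.528, 0.555 and 0.587 in the controls and 0.616, 0.595 and 0.645 with ICF, higher in every ICF sample (log2 difference 0.15, exact permutation p = 0.1).

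Foxa2 encodes a forkhead factor that can bind closed chromatin and marks definitive and anterior visceral endoderm. At chr2:148042877-148046969 on the minus strand (ENSMUSG00000037025), it had 23.2, 23.5 and 21.5 CPM in the controls and 24.8, 26.5 and 22.0 CPM with ICF. Each ICF sample was above the control of its number, but the groups overlapped because ICF replicate 3 was below control replicates 1 and 2. Foxa2 did not pass, with a log2 fold change of 0.10 (SE 0.09, edgeR adjusted p = 0.52). The ratio of Hnf4a to Foxa2 CPM was 0.432, 0.411 and 0.704 in the controls and 0.757, 0.703 and 0.887 with ICF (log2 difference 0.64, exact permutation p = 0.2), and control replicate 3 lay within the ICF range.

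**Figure D2:**
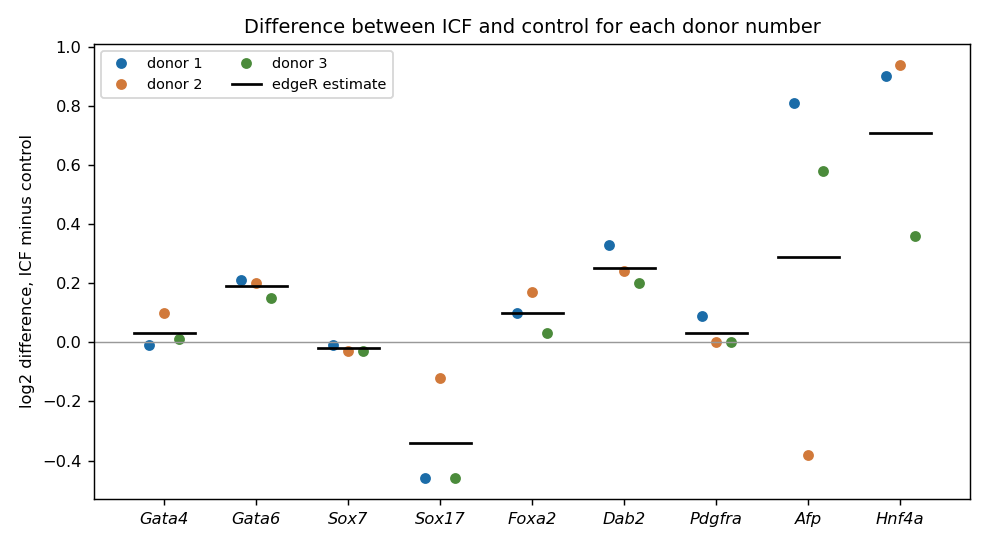
Log2 difference between the ICF and the control sample of the same donor number (points, vertical axis) for each endoderm marker, with the edgeR estimate over all 6 samples as a horizontal bar. Hnf4a, Gata6, Dab2 and Foxa2 lie above 0 for every donor number, Sox17 lies below 0 for every one, and Afp ranges from -0.38 to 0.81. Sox7 also lies below 0 for every donor number, but only just (-0.01, -0.03 and -0.03), and Pdgfra lies at 0.09, 0.00 and 0.00.

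Dab2 encodes an adaptor that links the endocytic receptors megalin (Lrp2) and cubilin (Cubn) to clathrin, and is needed for uptake by visceral endoderm. It lies on chromosome 15 (ENSMUSG00000022150, chr15:6299788-6440712, plus strand). The control samples had 526, 541 and 763 CPM and the ICF samples 663, 639 and 874 CPM for donors 1, 2 and 3. Replicate 3 was the highest sample of each group, and control replicate 3 was above ICF replicates 1 and 2, so the groups overlapped. Without the block the log2 fold change of 0.25 (SE 0.22) did not pass (edgeR adjusted p = 0.37, exact permutation p = 0.3). With the donor number as a block it was 0.26 with an adjusted p of 9.7e-05, and the differences of the 3 donor numbers were 0.33, 0.24 and 0.20. In replicates 1 and 2 alone it was 0.29 (edgeR adjusted p = 0.00011). Leaving out 1 sample moved the unblocked estimate between 0.10 and 0.44, with 0 of 6 fits past the threshold.

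The receptor genes that work with Dab2 were also highest in replicate 3 of each group. Lrp2 had 427, 422 and 716 CPM in the controls and 630.0, 605 and 796 CPM with ICF, a log2 fold change of 0.38 (edgeR adjusted p = 0.28, with the block 8.1e-07). Cubn had 835, 852 and 1253 CPM in the controls and 1069.5, 982 and 1204 CPM with ICF, a log2 fold change of 0.15 (edgeR adjusted p = 0.59, with the block 0.019). Lrp2 and Cubn, named here after their values were seen, passed without control replicate 3 (adjusted p = 0.013 and 0.039) and did not pass without any other single sample. Amn, the membrane partner of cubilin, fell in the same samples, from 117, 99.2 and 119 CPM to 79.5, 88.1 and 79.7 CPM (log2 fold change -0.44, edgeR adjusted p = 0.017), and its groups did not overlap, but it did not pass without control replicate 1 or ICF replicate 1 (adjusted p = 0.089 and 0.085). Of 15 genes of this endocytic list, none was called higher and 2 were called lower by edgeR, and 4 had an unadjusted p under 0.05. Over all genes tested, 4277 of 16729 had an unadjusted p under 0.05 in edgeR. With the block 3 genes of this list were higher and 4 lower, beside 14.6% and 15.3% of all genes. The ratio of Lrp2 to Dab2 was 0.843 ± 0.0836 in the controls and 0.936 ± 0.0212 with ICF (exact permutation p = 0.2), and that of Amn to Cubn was 0.117 ± 0.0228 and 0.0767 ± 0.0120 (p = 0.1).

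**Figure D3:**
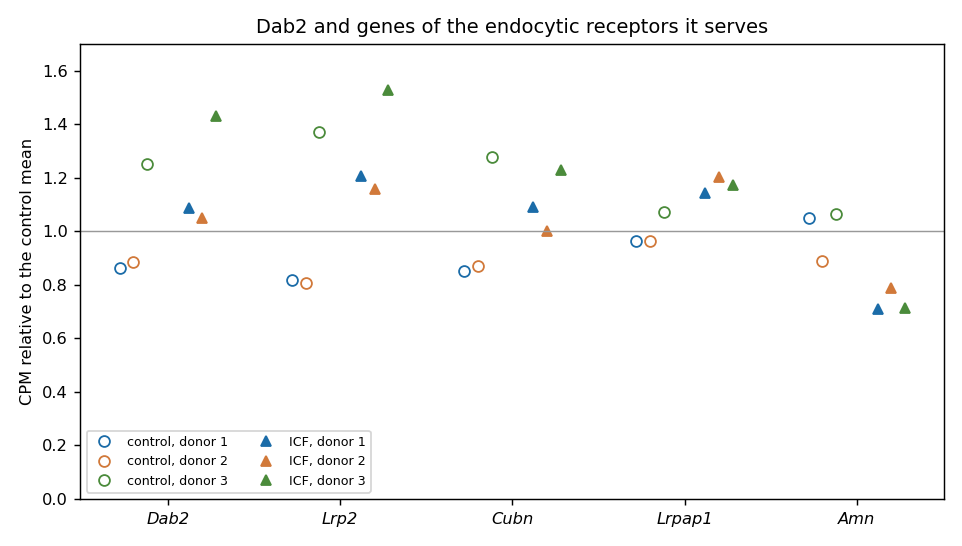
CPM of Dab2 and 4 genes of the endocytic list in each sample, divided by the gene's control mean (vertical axis, from 0); open circles are controls, filled triangles ICF samples and colours donor numbers. Dab2, Lrp2 and Cubn are highest in replicate 3 of each group, while the ICF samples of Amn all lie below the controls.

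Pdgfra, the alpha receptor for platelet-derived growth factors, had 170.5, 181.5 and 181.7 CPM in the controls and 182, 182 and 182 CPM with ICF (ENSMUSG00000029231, chr5:75152292-75198215, plus strand). The ICF samples were all above the controls, but for donors 2 and 3 the log2 difference was 0.00, and only control replicate 1 was apart. The log2 fold change was 0.03 (SE 0.03, edgeR adjusted p = 0.75). Among the 4 ligands and the second receptor, Pdgfc rose from 14.7 ± 1.02 to 20.5 ± 1.91 CPM (log2 fold change 0.48, adjusted p = 0.025) and was the only one of 5 called in edgeR. Pdgfc did not pass without control replicate 1, control replicate 2 or ICF replicate 1 (adjusted p = 0.12, 0.1 and 0.074).

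Afp encodes alpha-fetoprotein, the main serum protein of the yolk sac and fetal liver. It lies on chromosome 5 (ENSMUSG00000054932, chr5:90490737-90508907, plus strand) and was the rarest marker, with 39, 75 and 31 counts in the controls and 84, 60 and 48 with ICF. The 95% exact Poisson interval of the highest count, 84, was 67.0 to 104.0, and such intervals cover counting error only. In CPM the samples had 1.33, 2.40 and 1.08 without and 2.42, 1.82 and 1.66 with ICF. The groups overlapped, and control replicate 2 was as high as ICF replicate 1. The log2 fold change of 0.29 (SE 0.36) was smaller than its error (edgeR adjusted p = 0.6). The intervals of control replicates 2 and 3 (59.0 to 94.0 and 21.1 to 44.0) did not overlap, so the controls differed by more than counting error.

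Per length, the levels of the markers spanned a wide range. As mean CPM per kilobase of exon in the controls, Dab2 had 83.1 ± 18.1, Gata4 44.3 ± 1.86, Sox7 18.4 ± 0.559 and Pdgfra 17.75 ± 0.644. Gata6 had 14.8 ± 0.195, Sox17 14.4 ± 0.625, Foxa2 9.59 ± 0.443, Hnf4a 2.41 ± 0.639 and Afp 0.476 ± 0.207. Over the 6 samples the ranges overlapped between Sox7 and Pdgfra, Pdgfra and Gata6, Gata6 and Sox17, and Sox17 and Foxa2. Within a sample, Pdgfra was above Gata6 and Sox17 above Foxa2 in 6 of 6 samples, with lowest ratios of 1.062 and 1.042, while Sox7 was above Pdgfra in 4 of 6 and Gata6 above Sox17 in 5 of 6. Dab2 stood at percentile 96.9 of the genes tested and Gata4 at 92.3, whereas Hnf4a stood at 44.2 and Afp at 17.6. The pluripotency factors Pou5f1 (374 ± 25.4), Sox2 (222 ± 24.3) and Nanog (157 ± 17.5) were above each of the 9 markers in the controls on the same scale. The cultures carried transcripts of primitive endoderm markers together with abundant pluripotency transcripts. Hnf4a and Afp, which mark visceral endoderm and later the liver, were the lowest of the 9 markers, and Alb had no count in the controls.

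All 9 markers had a mean CPM of 1 or more, the minimum set for a search of genes alike in pattern. The genes whose log2 CPM had the closest pattern over the 6 samples were sought among 11917 genes with a mean count of 100 or more. They were Glb1l for Hnf4a (Pearson r = 0.996), Mid1ip1 for Sox17 (r = 0.989), Fam136a for Gata6 (r = 0.999) and Serpinb9b for Dab2 (r = 0.999). For Gata4, Sox7, Foxa2, Pdgfra and Afp they were Mrps26, 4930447C04Rik, Srrd, Gm5576 and Plekho2, with r from 0.974 to 0.997. With 6 samples in 2 groups that share their culture, a high best r among so many genes is a description only.

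**Figure D4:**
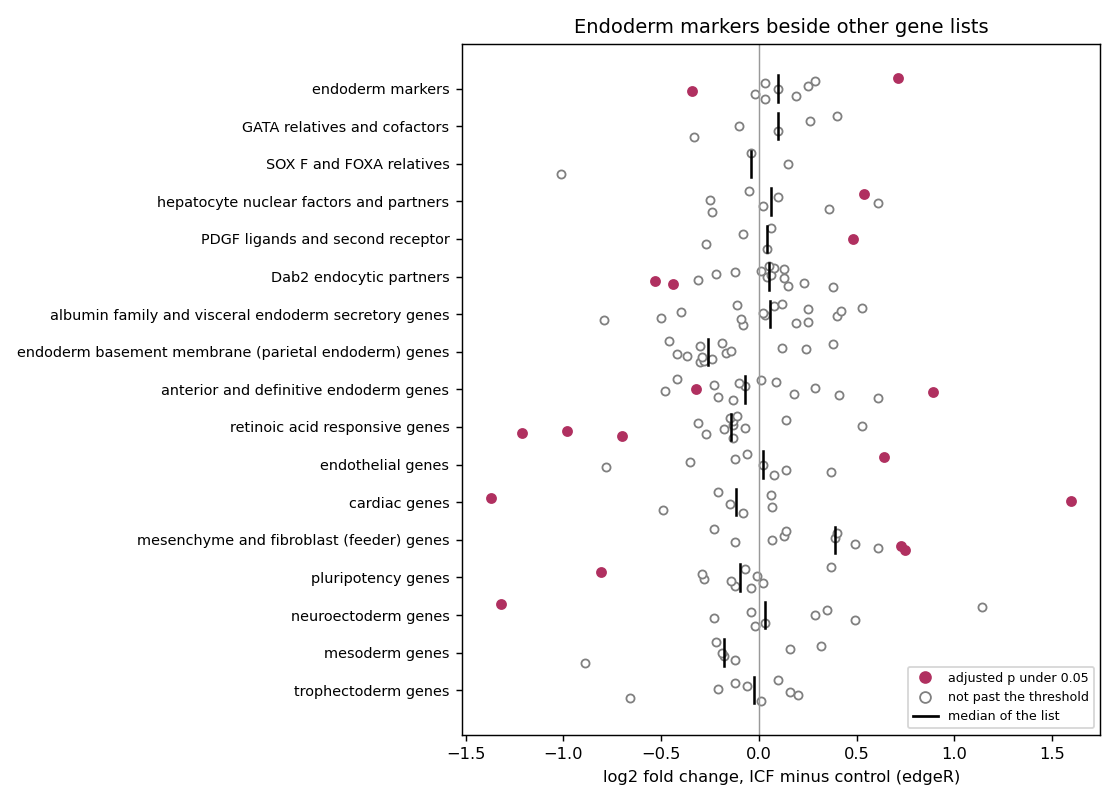
Log2 fold change (horizontal axis, ICF minus control, edgeR) of each tested gene in the endoderm marker set and in 16 other gene lists (rows); filled points passed an adjusted p of 0.05 and the vertical bars are list medians. The endoderm markers have 1 filled point on each side and a median of 0.10. The list of basement membrane and other parietal endoderm genes has a median of -0.26 with no filled point.

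Relatives of the marker genes were compared next. For the lists below, the background over all genes was 4277 of 16729 at an unadjusted p under 0.05 in edgeR. DESeq2 called 2.95% higher and 3.6% lower of the 29735 genes to which it gave a p, including those without an adjusted p. Among hepatocyte nuclear factors and their partners, 1 of 8 tested genes was called higher and none lower: Hhex, a homeobox factor of anterior endoderm and liver, rose from 15.3 ± 0.888 to 22.3 ± 2.01 CPM (log2 fold change 0.54, edgeR adjusted p = 0.013). It did not pass without control replicate 1 or 2 (adjusted p = 0.064 and 0.084). DESeq2 and the block each called 3 genes of this list higher and none lower. Of the 5 tested GATA relatives and cofactors none was called by edgeR or DESeq2 and 1 had an unadjusted p under 0.05; the most abundant, Zfpm1, had a log2 fold change of 0.26 (edgeR adjusted p = 0.14) and was the 1 gene called higher with the block (0.005). Of the 3 SOX F and FOXA relatives none was called by either tool and 1 had an unadjusted p under 0.05, with Foxa1 the most abundant (0.15, adjusted p = 0.69). With the block Sox18 was called lower (-1.02, edgeR adjusted p = 0.024, without the block 0.067). Sox18 had only 27 to 29 counts per sample in the controls and 12 to 20 with ICF, and DESeq2 gave it no adjusted p.

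Of 16 tested albumin family and visceral secretory genes, none was called by edgeR, 2 had an unadjusted p under 0.05, and DESeq2 called 1 higher. The list's median was 0.06, and Apoe, its most abundant gene, had 694 ± 62.25 CPM in the controls and 711 ± 32.7 CPM with ICF, a log2 fold change of 0.03 (edgeR adjusted p = 0.82). With the block 2 were higher and 1 lower. Fga and Apoc2 had no count in any sample. For Apoc2, 87.7% of the possible 75-base reads match another gene, mainly Gm44805, so the lack of counts does not show that its transcript was absent.

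The list of 14 parietal endoderm genes held basement membrane genes and also Plat, Thbd, Pth1r, Fst and Snai1, which are not basement membrane genes. The log2 fold changes were mostly negative, but 0 passed in edgeR. The 3 positive ones were those of Plat (0.24), Thbd (0.12) and Fst (0.38). Of the 14 genes 9 had an unadjusted p under 0.05, beside 4277 of 16729 over all genes. DESeq2 called 5 of them lower, beside 3.6% of all genes to which it gave a p, a share lowered by genes without an adjusted p. Their median log2 fold change was -0.26, and their summed level was 11398 to 13188.5 CPM in the controls and 9264 to 11188 CPM with ICF. With the block 2 were called higher (Plat and Fst) and 11 lower, beside 14.6% and 15.3% of all genes. Sparc, the most abundant, had a log2 fold change of -0.17 (edgeR adjusted p = 0.27, with the block 0.0048). Of 15 anterior and definitive endoderm genes, Lhx1 rose from 4.33 ± 1.25 to 8.04 ± 1.35 CPM (0.89, adjusted p = 0.04) and Epcam fell from 274.5 ± 20.9 to 220.3 ± 13.0 CPM (-0.32, adjusted p = 0.038). Lhx1 and Epcam both passed without control replicate 3 and did not pass without any other sample (adjusted p 0.06 to 0.17 and 0.063 to 0.17). With the block 3 were higher and 5 lower.

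Retinoic acid was given to both groups, and 3 of 14 retinoic acid responsive genes fell while none rose in edgeR; with the block 1 was called higher and 3 lower. Stra6, the retinol transporter, had a log2 fold change of -1.21 (edgeR adjusted p = 0.0069), Stra8 -0.98 (0.0062) and Cyp26a1, which degrades retinoic acid, -0.70 (0.0052). These 3 kept an edgeR adjusted p under the threshold without each of the 6 samples in turn. The median of the list was -0.14.

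Markers of other cell types were measured beside the endoderm set, and their part in the results was not tested. Of 9 tested endothelial genes, which are relevant because Sox7 and Sox17 are also expressed in endothelium, Eng rose (0.64, edgeR adjusted p = 0.0012). DESeq2 and the block each called 2 of them higher and 2 lower, Cdh5 joining Eng and Tie1 (-0.78) and Flt1 (-0.35) being lower (edgeR adjusted p with the block 0.00029, 0.00011 and 0.0036, without it 0.052, 0.086 and 0.076). Their summed level was 139.6 to 154.6 CPM in the controls and 152 to 185.5 CPM with ICF; Emcn was near 0. Of 8 cardiac genes, relevant to Gata4 and Gata6, Tnnt2 rose (1.60, edgeR adjusted p = 0.004) and Myl7 fell (-1.37, edgeR adjusted p = 0.025). Myl7 had only 26 to 30 counts per sample in the controls and 10 to 13 with ICF (means of 0.944 and 0.365 CPM). DESeq2 gave Myl7 no adjusted p, and it called 1 cardiac gene higher and none lower. The sum was 8.14 to 9.34 CPM and 11.7 to 12.3 CPM, and Nkx2-5, Myh6 and Actc1 also had means under 1 CPM. Of 11 mesenchyme and fibroblast genes, which share Pdgfra as a marker, Col1a1 (0.75, adjusted p = 0.022) and Col3a1 (0.73, adjusted p = 0.048) rose and none fell in edgeR and DESeq2, and with the block 4 were higher and 1 lower, with sums of 864.5 to 1112 CPM and 842 to 1020.2 CPM; Lum and Postn were near 0. Eng and Tnnt2 passed without each of the 6 samples. Myl7 passed only without ICF replicate 3, Col1a1 did not pass without control replicate 1, ICF replicate 1 or ICF replicate 2 (adjusted p 0.053 to 0.084), and Col3a1 did not pass without any 1 of the 6 samples (0.067 to 0.15).

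Of 10 pluripotency genes, Tdgf1, the Nodal co-receptor, fell (-0.81, edgeR adjusted p = 0.0028) and no other gene was called by edgeR. DESeq2 called 1 higher and 2 lower and the block 1 higher and 3 lower, the higher one being Dnmt3b (0.37, edgeR adjusted p = 0.13, with the block 2.3e-07). The sum was 3966 to 4475 CPM in the controls and 3770.4 to 3957 CPM with ICF. Pou5f1, Nanog and Sox2 did not pass, with log2 fold changes of -0.04, -0.12 and 0.02. Of 9 neuroectoderm genes, Elavl3 fell (-1.32, edgeR adjusted p = 0.042) and no other gene was called by edgeR. DESeq2 called 1 higher and 1 lower and the block 3 higher and 2 lower, among them Nes (0.49, edgeR adjusted p = 0.1, with the block 0.00065). The sums were 145 to 167 CPM and 133 to 145 CPM; Neurog2 was near 0. Genes given for the block and DESeq2 beyond those edgeR called are named after their values were seen. Tdgf1 passed without each of the 6 samples, and Elavl3 only without replicate 3 of either group. Of 7 tested mesoderm genes none was called by edgeR or DESeq2 and 1 had an unadjusted p under 0.05, with sums of 138.6 to 151.6 CPM and 121 to 136 CPM; Tcf15, the most abundant, had -0.22 (edgeR adjusted p = 0.45, with the block 0.0033), the block called 2 lower and none higher, and Mesp1 and Msgn1 were near 0. Of 8 trophectoderm genes, 2 of which the other lists also held, none was called by either tool and 0 had an unadjusted p under 0.05, with sums of 183 to 257 CPM and 186 to 267 CPM, and Tfap2c, the most abundant, had 0.16 (edgeR adjusted p = 0.29, with the block 0.044); the block called 2 higher and 1 lower. Of the reference genes, Gapdh had 22.8 ± 2.31 CPM in the controls and 22.3 ± 0.930 CPM with ICF. Actb had 2655 ± 141 and 2401 ± 85.8 CPM. Gapdh was thus counted far below Actb, and the reason was not tested. The log2 fold change was -0.03 for Gapdh and -0.14 for Actb (edgeR adjusted p = 0.86 and 0.18, with the block 0.82 and 0.016). The summed level of the 9 endoderm markers was 1137 to 1376 CPM in the controls and 1286 to 1485 CPM with ICF.

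**Figure D5:**
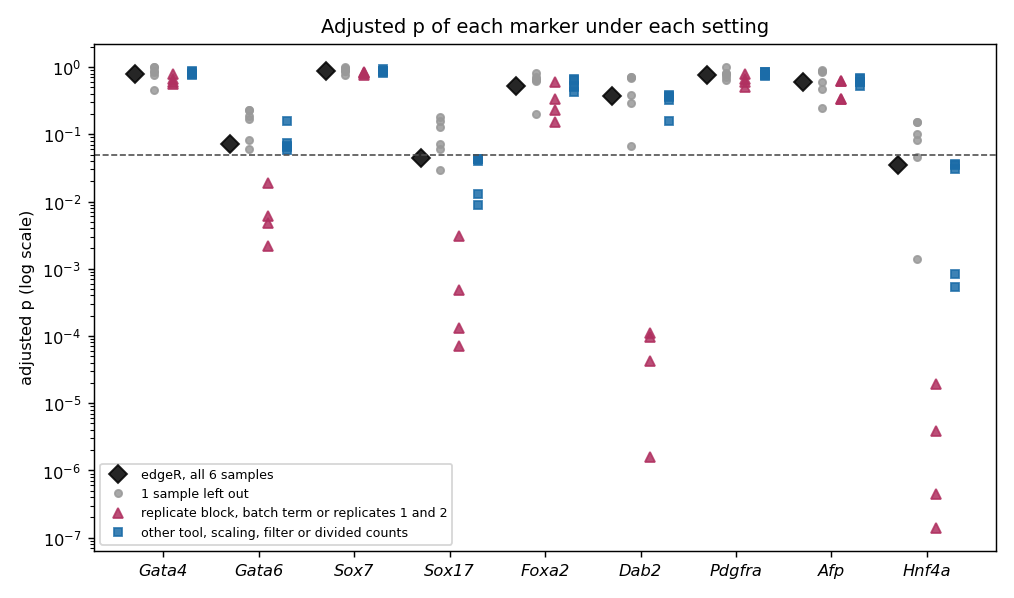
Adjusted p (vertical log axis) of each endoderm marker with all 6 samples in edgeR (diamonds), with 1 sample left out (circles), with the replicate block, a batch term for replicate 3 or replicates 1 and 2 alone (triangles), and under other tools, scalings and filters (squares); the dashed line is 0.05. Gata6 and Dab2 lie below the line in the triangles and in no other kind of point, Sox17 and Hnf4a lie below it in all triangles and squares, and Gata4, Sox7, Foxa2, Pdgfra and Afp lie above it in every setting.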

How the data were processed

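RNA sequencing (strand-specific, single-end reads of 75 cycles) was performed on 3 control and 3 ICF samples. Reads were checked with FastQC, filtered with Trimmomatic, mapped with HISAT2 and counted per gene with HTSeq by the authors. They deposited 1 file of raw, unnormalised gene counts for every sample. The submitters' processing notes also list bcl2fastq 2.19, DESeq2 and the builds hg38 and GRCm38. The other versions, the annotation and the strand setting of the counting are not given in the sources used here. The labels and the methods name different RNA extraction kits. HTSeq's summary rows were left out of library sizes; reads aligned to several places were 29.5% to 31.3% of all rows and reads outside genes 4.1% to 6.2%.

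Gene names and coordinates came from GENCODE M21 on GRCm38, which named 50376 of 50686 identifiers. The quasi-likelihood test of edgeR 4.0.16 (R 4.3.3; TMM scaling, filterByExpr by group) was applied to the counts without a block, with Benjamini-Hochberg adjustment over 16729 genes and a threshold of 0.05. CPM are TMM-normalised, and single-gene log2 values carry a pseudocount of 0.1 CPM. Standard errors are from the spread of log2 CPM in each group. For single values a two-sided exact permutation test over samples was added; it cannot give a p below 0.1 here. The procedure was tested on simulated counts. Intervals of counts are exact Poisson (95%) and cover counting error only.

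The labels number the samples donor 1 to 3 in both groups. Deviations from the group means correlated at 0.16, 0.21 and 0.40 between samples of the same number and at -0.36 to 0.28 between others. Only replicate 3 stood apart. Control replicate 1 was closer to ICF replicate 2 (0.28) than to ICF replicate 1 (0.16), and control replicate 2 had 0.19 with ICF replicate 1 and 0.21 with ICF replicate 2. The block therefore rests on the labels, and the correlations do not show that replicates 1 and 2 were pairs. The methods speak of independent experiments, and nothing else says what a donor is, so p-values may measure spread between cultures only.

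The text names all 9 markers, the genes past the threshold in each of 16 gene lists (up to 6 a list), or a list's most abundant gene where none passed, the gene most alike each marker, and Gapdh and Actb; a gene of these lists that passed is not reported here by name. The markers and lists were chosen with earlier results of these data known. Promoter windows and their letters were from RefSeq (GRCm38.p6). Alternatives were DESeq2 1.42.0, RLE size factors, other count filters (at least 1 count in any sample, or 10 in every sample), the replicate block with edgeR and with DESeq2, replicate 3 as a batch term, replicates 1 and 2 alone, ICF replicate 3 divided by 4, and leaving out each sample.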

Additional observations from a re-analysis of the deposited data

How the results depend on the processing

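The number of genes past the threshold was 1313 in edgeR with all samples, 5006 with the replicate block, 3020 in DESeq2 with the replicate block, 5699 with replicate 3 as a batch and 5093 in replicates 1 and 2 of each group, and it ranged from 300 to 1652 when each sample was left out. DESeq2 without the block called 877 genes higher against 580. Of the 9 endoderm markers, 2 were past the threshold with all samples, 4 under each of those 4 settings, and 0 to 1 when each sample was left out. The block changed the calls of Gata6 and Dab2 and of no other marker. Hnf4a and Sox17 kept their direction and call under DESeq2, RLE size factors, both count filters and ICF replicate 3 divided by 4. Gata4 ranged from -0.003 to 0.082 on the log2 scale when each sample was left out, being -0.003 without ICF replicate 2 and -0.000 without control replicate 3, and Sox7 from -0.038 to 0.003, being 0.001 and 0.003 without the same samples; neither passed under any of the 15 alternatives. The cause of these shifts was not tested. With 1 sample left out, a group of 2 remained, with a spread estimated over both groups. Afp had the lowest depth of the markers, with 31 to 84 counts per sample.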
